A study of Oryza sativa Japonica Group with 6 samples.

Results

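Diploid rice anthers entering meiosis were described by setting the library of anthers at meiosis (MA-2x) against that of anthers at pre-meiotic interphase (PMA-2x), over all 402 miRNAs listed for diploid rice, out of 486 listed for diploid and tetraploid rice together. Both libraries came from Taichung65-2x, a japonica rice line. MA-2x anthers were 1.00 to 1.35 mm long, from florets of 3.80 to 4.30 mm, and PMA-2x anthers were 0.75 to 0.85 mm long, from florets of 2.50 to 3.00 mm. The series also holds diploid anthers at the single microspore stage (SCP-2x) and the same 3 stages of Taichung65-4x, the autotetraploid obtained from that line with colchicine and then selfed (MA-4x, PMA-4x and SCP-4x). Each group is 1 small RNA library with no replicate, so every value below compares libraries and no test across replicates could be made.

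Levels are normalised reads, which are copy numbers multiplied by 1 factor per library. One read was worth 0.944 in MA-2x and 1.35 in PMA-2x. The listed signal summed to 106731 in MA-2x (about 113099 reads in the table) and to 129895 in PMA-2x (about 96463 reads in the table). A miRNA was compared where the larger of its 2 values exceeded 10, and called higher or lower where the fold exceeded 2. Intervals after a fold are 95% exact binomial intervals that cover counting error only. They are given where both values were whole numbers of reads. A whole anther mixes several cell layers, so fewer cells of a type and less miRNA per cell cannot be told apart.

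Plant miRNAs are cut from hairpin precursors, which yield a product from the 5′ arm (5p) and one from the 3′ arm (3p), and they guide Argonaute proteins to matching transcripts. In grass anthers, miR2118 and miR2275 are known as triggers: they direct the cleavage of long non-coding transcripts, whose pieces are then diced in register into phased small RNAs (phasiRNAs). miR2118 starts the 21 nt phasiRNAs, which are known mostly from anthers before meiosis, and miR2275 the 24 nt phasiRNAs, which are known mostly from meiotic anthers. A length of 22 nt and a 5′ uridine are usual for such triggers.

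The sequences below carry the trigger results. They are given as DNA letters, 5′ to 3′, as the deposited table lists them, with bases 2 to 8 (the seed) in capitals. The 12 miR2118 products of the 3p arm are all 22 nt, 11 of them start with T, and they are identical at 12 of 22 positions. They fall into 6 seeds. The most abundant of each seed group and the member with the largest fold are shown.
osa-miR2118d: tTCCTGATgcctcccatgccta
osa-miR2118b: tTCCCGATgcctcccattccta
osa-miR2118c: tTCCCGATgcctcctattccta
osa-miR2118g_1ss5TC: tTCCCAATgcctcccattccta
osa-miR2118i: tTCCTAGTgcctcccattccta
osa-miR2118l: tTCCTAATgcttcccattccta
osa-miR2118a: tTCTCGATgcctcccattccta

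For miR2275, the main 22 nt products and the abundant 21 nt products of the 5p arm are shown, because their levels parted between the libraries. osa-miR2275d and osa-MIR2275c-p3 share a seed, and so do zma-miR2275b-3p and a predicted hairpin product, PC-3p-75342_274.
osa-miR2275d: cTTGTTTTtctccaatatctca
osa-MIR2275c-p3: aTTGTTTTtctccaatatctca
osa-miR2275a_1ss15AG: tTTGGTTTcctccagtatctca
zma-miR2275b-3p_1ss22AG: tTCAGTTTcctctaatatctcg
PC-3p-75342_274: tTCAGTTTcctccaacatctta
osa-miR2275c_R-2: aGAATTGGaggaaaacaaact
zma-miR2275b-5p_1ss12CG: aGGATTAGagggaactgaacc

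Abundant or called miRNAs that were higher in MA-2x are shown next, together with the second arm of the miR168a hairpin, which did not follow the first, and osa-MIR167c-p3, which was called in opposite directions in the 2 ploidies.
osa-miR1425-5p: tAGGATTCaatccttgctgct
osa-miR168a-5p: tCGCTTGGtgcagatcgggac
osa-miR168a-3p_L-3: cCCGCCTTgcaccaagtgaat
osa-miR156a: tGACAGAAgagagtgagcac
osa-miR172a: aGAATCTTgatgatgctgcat
osa-miR166a-3p: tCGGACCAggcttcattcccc
osa-miR396e-5p: tCCACAGGctttcttgaactg
osa-miR1871: aTGGCTCTgatatcatgttggttt
osa-MIR167c-p3: tCTTGTGGtcatgccttgcta

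Of the 379 miRNAs compared, 21 (5.54%) were higher in MA-2x and 84 (22.2%) were lower, while 274 did not pass the 2-fold limit. The median log2 ratio was −0.38, and the quartiles lay 0.49 below and 0.52 above that median. The balance depends on the scaling. With reads taken over the clean reads of each library, 45 (11.9%) were higher and 43 lower, so the higher calls made up 51.1% of all calls instead of 20%. With equal sums they made up 41.3%, and the median of all miRNAs was shifted by 0.28 with equal sums and by 0.38 with clean reads. Under all 4 scalings, 43 miRNAs (11.3%) were lower. The 21 higher as deposited stayed higher by construction, since the other scalings all raise the ratio of MA-2x over PMA-2x. Because the balance depends on the scaling, values relative to the median of all miRNAs are given for each list.

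The share called differed with the level and was highest among the scarcest miRNAs. Of the 127 whose larger value lay between 10 and 20, 39.4% were called. The share was 25.7% of the 74 between 20 and 50, 18.8% of the 80 between 50 and 200, and 15% of the 60 between 200 and 1000. It was 31.6% of the 38 above 1000, where 2 were higher and 10 lower. A value of 10 stands for 10.6 reads in MA-2x and 7.43 reads in PMA-2x. Among the 178 miRNAs of at least 50, 5 were higher and 31 were lower. Of the 15 that were lower under all scalings 10 belonged to miR2118 or miR2275, families that made up 37 of the 178. Both libraries were led by few miRNAs: the 10 most abundant held 40.01% of the signal in MA-2x and 35.3% in PMA-2x, and 7 of them were the same.

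**Figure D1:**
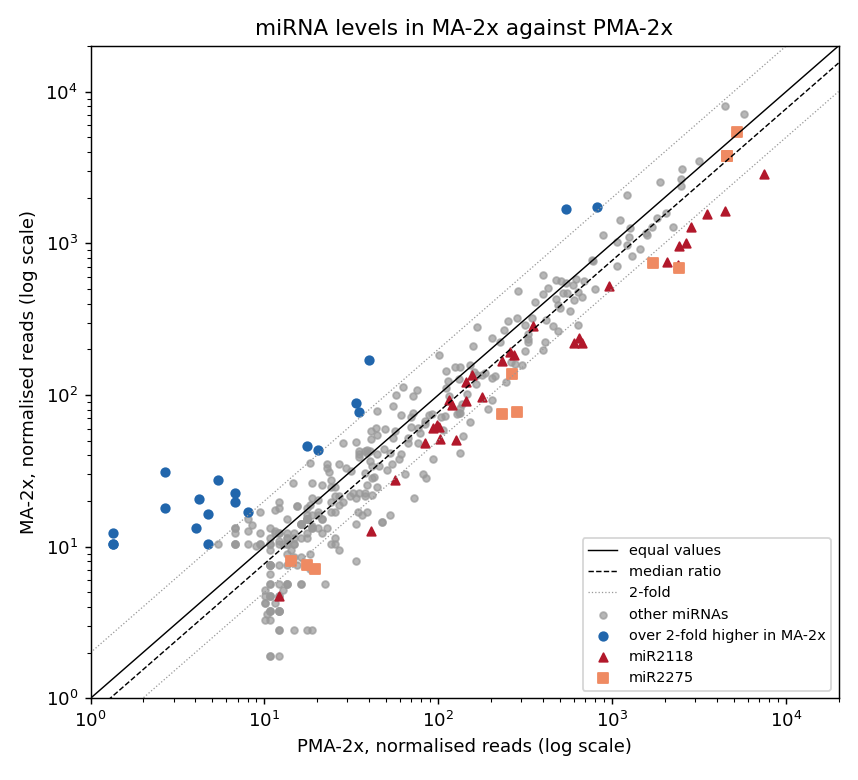
Normalised reads of each compared miRNA in MA-2x (vertical, log scale) against PMA-2x (horizontal, log scale), with lines for equal values, the median ratio and a 2-fold difference; osa-MIR2874-p5_1ss24TG, listed at 0 in PMA-2x, is left out. The miR2118 points (triangles) lie below the line of equal values, the 3 most abundant miR2275 points (squares) lie near it, and 2 of the points higher in MA-2x exceed 1000 there.

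The trigger families were lower in MA-2x. Among miRNAs of at least 50, they held more of the calls lower under all scalings than of all miRNAs compared, as counted above. All 42 listed members of miR2118 and miR2275 were compared. Lower in MA-2x were 21 (50%), 15 of 31 in miR2118 and 6 of 11 in miR2275, and none was higher. Among all miRNAs compared 22.2% were lower and 5.54% higher. Of the 42 members 41 had the smaller value in MA-2x, as had 68.3% of all miRNAs compared. Of the 42 members 35 lay below the median of all miRNAs. Their median was 0.64 below that of all miRNAs on the log2 scale. Together they held 26.7% of the listed signal in MA-2x and 40.5% in PMA-2x.

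The lower level of miR2118 was carried by the 22 nt products of the 3p arm, the arm of the annotated trigger. Their 12 levels ran from 219 to 2873 in MA-2x (median 851) and from 604 to 7447 in PMA-2x (median 2409). The largest, osa-miR2118d, stood at 2873 in MA-2x and 7447 in PMA-2x, a 2.59-fold lower level. osa-miR2118b had 1641 in MA-2x and 4435 in PMA-2x (2.70-fold lower), and osa-miR2118c had 714 in MA-2x and 2393 in PMA-2x (3.35-fold lower). Between these, osa-miR2118e had 999 in MA-2x and 2649 in PMA-2x, osa-miR2118f 1554 in MA-2x and 3489 in PMA-2x, osa-miR2118h 747 in MA-2x and 2062 in PMA-2x, and osa-miR2118p 954 in MA-2x and 2424 in PMA-2x. The folds of the 12 lay between 1.83 and 3.35, and only osa-miR2118o (523 in MA-2x and 955 in PMA-2x) stayed inside the 2-fold limit. Their summed signal was 11968 in MA-2x and 30593 in PMA-2x, 2.56-fold lower. None of the 12 was a whole number of reads in both libraries, and members this alike can share reads, so the split between loci is uncertain.

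Each seed of these products was lower in MA-2x. The median log2 ratio was −1.27 for the 4 members with the seed of osa-miR2118d and −1.43 for the 3 with that of osa-miR2118b. It was −1.27 for the 2 members with the seed of osa-miR2118g_1ss5TC, and the 3 seeds with a single member gave −1.60 (osa-miR2118a), −1.46 (osa-miR2118l) and −1.42 (osa-miR2118i).

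Products of the 5p arm of miR2118 differed less between the libraries. The 18 members ran from 12.7 to 285 in MA-2x (median 88.7) and from 41.1 to 349 in PMA-2x (median 123), and their median log2 ratio was −0.63, against −1.42 for the 3p products. Of these 18 members 3 were lower by the call, while 11 of the 12 on the 3p arm were. Where both arms of a hairpin were measured, the 3p product had the smaller ratio in 11 of 12 hairpins, with a median difference of −0.54 on the log2 scale. For osa-miR2118c the log2 ratio was −1.75 (3p) and −0.64 (5p), and for osa-miR2118l −1.46 and −0.47. The exception was osa-miR2118a, with −1.60 and −1.69. The 3p product outnumbered the 5p product by a median of 10.6 times in MA-2x and 14.96 times in PMA-2x.

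miR2275 divided by length and arm. All 6 products of 22 nt were below the median of all miRNAs, with a median log2 ratio of −1.42, and 5 of them were called lower. osa-miR2275d had 687 in MA-2x and 2417 in PMA-2x (3.52-fold lower). osa-miR2275a_1ss15AG had 77.4 in MA-2x and 284 in PMA-2x (3.67-fold lower, 2.83 to 4.80). osa-MIR2275c-p3 had 75.02 in MA-2x and 232 in PMA-2x, and zma-miR2275b-3p_1ss22AG had 745 in MA-2x and 1712 in PMA-2x (2.30-fold lower). The log2 ratios of the 6 ran up to −0.95.

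Of the 5 products of 21 nt, all from the 5p arm, 3 were the most abundant members of the family and were inside the 2-fold limit. osa-miR2275c_R-2 had 5448 in MA-2x and 5198 in PMA-2x, a ratio of 1.05 (1.01 to 1.09). zma-miR2275b-5p_1ss12CG had 3745 in MA-2x and 4562 in PMA-2x (1.22-fold lower, 1.16 to 1.28). zma-miR2275c-5p_2ss14CA15TC carries the same sequence and nearly the same values (3746 in MA-2x and 4564 in PMA-2x), so sums over the family count it under both names. The other pair was scarce and is also 1 sequence under 2 names. osa-MIR2275a-p5 was lower, with 7.08 in MA-2x and 19.5 in PMA-2x. osa-MIR2275b-p5 had 8.02 in MA-2x and 14.1 in PMA-2x and was not called. With these abundant products included, the family's share of the signal was 13.8% in MA-2x and 14.9% in PMA-2x, while that of miR2118 was 12.9% in MA-2x and 25.6% in PMA-2x.

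The least abundant 22 nt member is mes-miR2275, which was named after a cassava miRNA. It had 7.55 in MA-2x and 17.5 in PMA-2x (2.32-fold lower, 0.89 to 6.45). PC-3p-75342_274, a predicted hairpin product of 22 nt that differs from mes-miR2275 at 3 of 22 bases, had 28.3 in MA-2x and 84.8 in PMA-2x (3.00-fold lower, 1.91 to 4.80). Of the 38 trigger members over 10 in SCP-2x or MA-2x, 37 had the smaller value in SCP-2x, as had 69.8% of the 354 miRNAs over 10 there, and 33 lay below the median of all miRNAs for that later step. The member with the larger value in SCP-2x was osa-miR2275c_R-2, with 6667 in SCP-2x and 5448 in MA-2x.

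**Figure D2:**
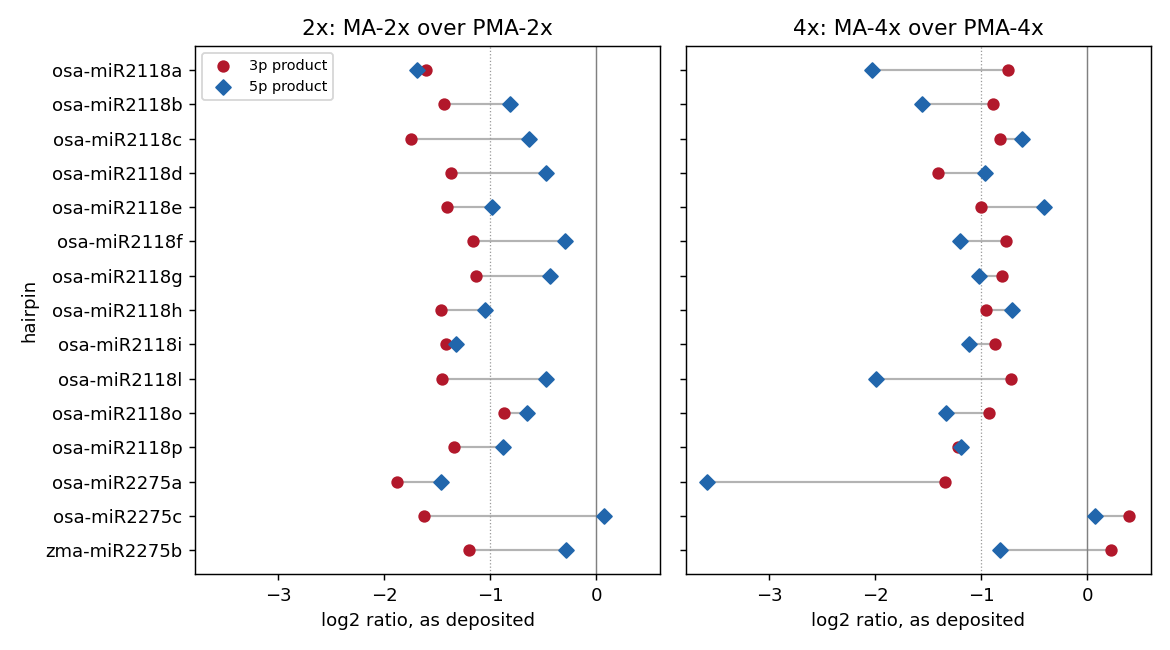
Log2 ratio of MA over PMA for the 3p product (circles) and the 5p product (diamonds) of each miR2118 and miR2275 hairpin, in diploid anthers (left) and tetraploid anthers (right). In the diploid panel the circle lies left of the diamond in all hairpins but osa-miR2118a; in the tetraploid panel it lies left in 5 of the 12 miR2118 hairpins.

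The 22 nt class lay lowest among the larger length classes. The 53 compared miRNAs of 22 nt had a median of 0.67 below that of all miRNAs, with 27 lower and 2 higher. Without miR2118 and miR2275, 25 were left and the median lay 0.29 below. The 32 of 22 nt that start with T had a median log2 ratio of −1.35, with 22 lower and none higher. They include 11 of the 12 miR2118 products of the 3p arm, zma-miR2118e, osa-miR2275a_1ss15AG, both zma-miR2275b-3p names and mes-miR2275. They were not described without these triggers, so the value partly repeats the trigger result. The 213 of 21 nt lay 0.13 above the median, with 11 higher and 28 lower, and the 11 of 20 nt lay 0.88 above it, with 2 higher and none lower. The 92 of 24 nt lay 0.14 below it, with 5 higher and 27 lower, and this sign turned with a pseudocount of 10 (0.01 above) and for the summed signal (0.20 above).

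In shares of the listed signal, the 21 nt class held 77.1% in MA-2x and 63.2% in PMA-2x. The 22 nt class held 15.1% in MA-2x and 30.1% in PMA-2x, and the 24 nt class 5.95% in MA-2x and 5.18% in PMA-2x. The summed signal of the 21 nt class was almost the same in both libraries (82279 in MA-2x and 82076 in PMA-2x).

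**Figure D3:**
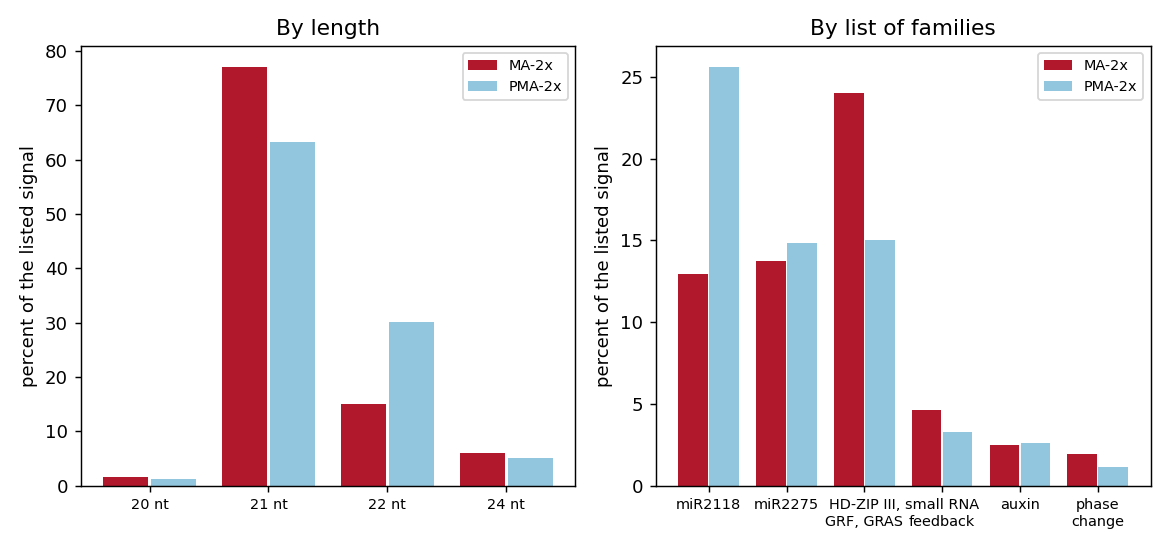
Percent of the listed signal held by length classes (left) and by lists of families (right), with MA-2x to the left of PMA-2x in each pair of bars. The 22 nt and miR2118 bars are higher in PMA-2x, and the 21 nt and HD-ZIP III, GRF and GRAS bars are higher in MA-2x.

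Families that act on leaf and floral patterning genes stood above the median. The list holds miR165 and miR166, which target HD-ZIP III transcription factors, miR171, which targets GRAS factors, and miR396, which targets growth-regulating factors (GRF). The list counts products of both arms, and 8 of the 16 miR166 members are of the 5p arm. Of its 28 compared members 3 (10.7%) were higher and 3 (10.7%) were lower, against 5.54% and 22.2% of all miRNAs. Above the median of all miRNAs lay 23 of the 28, with a list median 0.75 above it. With reads over clean reads 11 were higher and none lower, against 45 higher and 43 lower of all 379. The list held 24.04% of the signal in MA-2x and 15.01% in PMA-2x.

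miR166 held 14.4% of the signal in MA-2x and 8.91% in PMA-2x, the larger part of that list. osa-miR166a-3p, the most abundant miRNA in MA-2x, had 8089 there and 4447 in PMA-2x, a log2 ratio of 0.86 that was inside the 2-fold limit as deposited. The other arm of its hairpin, osa-miR166a-5p, had 152 in MA-2x and 132 in PMA-2x. osa-miR166k-3p, from the same family, had 2637 in MA-2x and 2484 in PMA-2x. Of the 16 miR166 members 15 lay above the median of all miRNAs, and 3 were called higher. These were sbi-miR166a_R+1_1ss17TC (76.9 in MA-2x and 35.01 in PMA-2x), osa-MIR166f-p5 (31.1 in MA-2x and 2.69 in PMA-2x) and osa-miR166c-5p_R+1 (13.2 in MA-2x and 4.04 in PMA-2x). The PMA-2x values of the last pair are 2 and 3 reads, so their folds were 11.6 (2.96 to 99.5) and 3.27 (0.91 to 17.7). The sequence of sbi-miR166a_R+1_1ss17TC is also listed as sbi-miR166e_3ss16AT17TC21TC. Under that name it had 183 in MA-2x and 101 in PMA-2x and was not called, so its call depends on the name.

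miR396 differed by arm. osa-miR396e-5p had 2093 in MA-2x and 1221 in PMA-2x, and osa-miR396c-5p had 484 in MA-2x and 286 in PMA-2x, log2 ratios of 0.78 and 0.76. osa-miR396c-3p had 48.1 in MA-2x and 76.8 in PMA-2x (1.59-fold lower, 1.07 to 2.37). miR171 differed by hairpin. osa-MIR171i-p3 had 7089 in MA-2x and 5736 in PMA-2x (1.24-fold higher, 1.19 to 1.28), and osa-miR171i-5p had 279 in MA-2x and 166.98 in PMA-2x. osa-miR171b was lower, with 37.7 in MA-2x and 93.2 in PMA-2x, as were osa-MIR171b-p5 (92.5 in MA-2x and 205 in PMA-2x) and osa-MIR171a-p3 (16.0 in MA-2x and 36.6 in PMA-2x).

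The phase change list, whose families set the timing of growth phases and of inflorescence branching, had 3 of 12 members higher, none lower and a median 0.66 above that of all miRNAs. Of all miRNAs compared 5.54% were higher and 22.2% lower. osa-miR156a, which targets SPL transcription factors, had 170.89 in MA-2x and 40.1 in PMA-2x. In miR172, a family whose mature form targets AP2-like factors, osa-miR172a and osa-miR172d-5p_R+1 were called, about level with each other in MA-2x. osa-miR172d-5p_R+1 is of the 5p arm and has another seed than osa-miR172a, and the authors name an F-box gene as its target. osa-miR172a had 45.8 in MA-2x and 17.5 in PMA-2x, and osa-miR172d-5p_R+1 had 43.4 in MA-2x and 20.2 in PMA-2x (2.15-fold higher, 1.18 to 4.14). The most abundant member, osa-MIR529a-p5, from a family that also targets SPL factors, had 1423 in MA-2x and 1106 in PMA-2x. osa-miR535-5p was equal, with 110 in each library, a ratio of 1.00 (0.75 to 1.34).

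miRNAs that act on the small RNA machinery parted by arm. osa-miR168a-5p, which targets AGO1, had 1732 in MA-2x and 821 in PMA-2x (2.11-fold higher, 1.92 to 2.31). Its partner osa-miR168a-3p_L-3 had 1288 in MA-2x and 1691 in PMA-2x (1.31-fold lower, 1.22 to 1.42), so the 3p arm was below the 5p arm in MA-2x and above it in PMA-2x. miR162, which targets DCL1, was near equal in its mature form, with 781 in MA-2x and 770 in PMA-2x for osa-miR162a. osa-MIR162a-p5 and osa-MIR162b-p5, 1 sequence with 1 set of values, had 14.6 in MA-2x and 47.1 in PMA-2x. Of the 6 members 1 (16.7%) was higher and 2 (33.3%) were lower, against 5.54% and 22.2% of all miRNAs. The 2 lower members are that 1 sequence under 2 names. The median lay 0.19 above that of all miRNAs, and 0.40 above it with each sequence counted once.

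The auxin list (miR160, miR164, miR167, miR390 and miR393) showed no common direction. Of its 19 compared members 2 (10.5%) were higher and 5 (26.3%) lower, against 5.54% and 22.2% of all miRNAs. The list median lay 0.16 above that of all miRNAs. osa-miR167d-5p_R+1, its most abundant member and a regulator of ARF6 and ARF8 type factors, had 819 in MA-2x and 1307 in PMA-2x. osa-miR167h-3p had 198 in MA-2x and 397.2 in PMA-2x (2.00-fold lower, 1.67 to 2.40). osa-MIR167j-p3 had 22.6 in MA-2x and 6.73 in PMA-2x (3.36-fold higher, 1.26 to 11.3), and osa-MIR167c-p3 had 19.8 in MA-2x and 6.73 in PMA-2x (2.94-fold higher, 1.08 to 9.99). Within miR164, which targets NAC factors, osa-miR164c had 80.5 in MA-2x and 193 in PMA-2x, whereas osa-miR164a had 158 in MA-2x and 152 in PMA-2x. The other lower members, osa-miR167e-3p, sbi-miR167c_R+1 and tae-miR160_R+1_2ss20CT21AT, had at most 5.19 in MA-2x and between 12.1 and 12.8 in PMA-2x. The sequence of sbi-miR167c_R+1 is also listed as tae-miR167b_R+1_2ss9AC21AG, which had 5.19 in MA-2x and 10.1 in PMA-2x and was not called.

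Copper and lignin families lay below the median. All 6 members of miR397, miR408 and miR528, which target laccases and other copper proteins, were below it, with a list median 0.60 below that of all miRNAs. By the call 3 of them were lower, against 22.2% of all miRNAs, and none was higher. The most abundant members lay nearer the median: osa-miR528-5p 0.21 below it and osa-miR408-3p (135 in MA-2x and 178 in PMA-2x) 0.02 below it. The list held 0.86% of the signal in MA-2x and 1.12% in PMA-2x. osa-MIR397b-p5 had 53.8 in MA-2x and 139 in PMA-2x (2.58-fold lower, 1.85 to 3.63), and osa-MIR397b-p3 had 16.0 in MA-2x and 52.5 in PMA-2x (3.27-fold lower, 1.81 to 6.17). osa-miR528-5p had 703 in MA-2x and 1058 in PMA-2x (1.51-fold lower, 1.36 to 1.67). Its partner osa-miR528-3p had 2.83 in MA-2x, which is 3 reads, and 18.9 in PMA-2x (6.66-fold lower, 1.86 to 36.1).

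Among the 4 members of miR159 and miR319, which target GAMYB and TCP factors, none was called and the median lay 0.13 below that of all miRNAs. osa-miR159a.1 had 1127 in MA-2x and 1589 in PMA-2x. Of the phosphate and sulfate families, osa-miR395b_L-1 was called higher, with 20.5 in MA-2x and 4.21 in PMA-2x, and osa-miR827 had 24.5 in MA-2x and 25.6 in PMA-2x (0.96-fold, 0.51 to 1.83). No member of miR444, which targets MADS-box genes, was listed for diploid rice. Among the families known for long miRNAs, 5 of 12 were lower, against 22.2% of all miRNAs, and none was higher, with a median 0.37 below. Under all 4 scalings 2 of the 5 stayed lower. osa-miR1862d had 30.2 in MA-2x and 82.1 in PMA-2x (2.72-fold lower, 1.75 to 4.31). osa-MIR1863a-p5, a product of only 21 nt, had 30.2 in MA-2x and 64.6 in PMA-2x (2.14-fold lower, 1.34 to 3.46). The other lower members were scarcer. osa-miR1862a had 10.4 in MA-2x and 24.2 in PMA-2x (2.33-fold, 1.04 to 5.47), osa-miR1874-5p 5.66 in MA-2x and 12.1 in PMA-2x (2.14-fold, 0.68 to 7.31), and osa-MIR820b-p3 3.62 in MA-2x and 10.3 in PMA-2x.

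**Figure D4:**
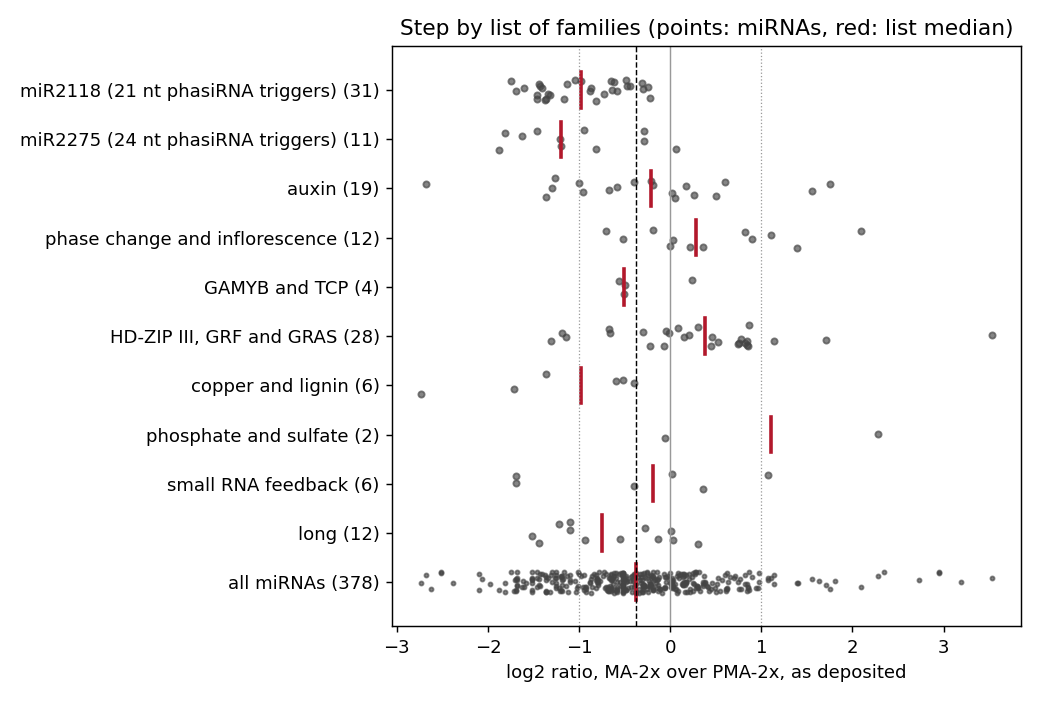
Log2 ratio of MA-2x over PMA-2x, as deposited, for each compared member of a list (points, with the number of members in brackets) and the list median (red bar); the dashed line is the median of all miRNAs at −0.38, and 1 miRNA listed at 0 in PMA-2x is left out of the bottom row. The medians of miR2118 and miR2275 lie at −0.98 and −1.20, while the list with miR166, miR171 and miR396 has its median at 0.38.

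Outside these lists, osa-miR1425-5p, whose known rice targets are PPR genes related to fertility restorers, had the largest fold higher in MA-2x among miRNAs over 1000. It had 1684 in MA-2x and 544 in PMA-2x (3.09-fold higher, 2.78 to 3.46). osa-miR1871, of 24 nt, had 88.7 in MA-2x and 33.7 in PMA-2x (2.64-fold higher, 1.68 to 4.28), while the 5p product of its hairpin, osa-MIR1871-p5, had 5.66 in MA-2x and 13.5 in PMA-2x (2.38-fold lower, 0.78 to 7.96). Lower among long miRNAs were osa-miR1876, with 41.5 in MA-2x and 133 in PMA-2x (3.21-fold, 2.23 to 4.69), and osa-miR1429-5p_R+3, with 20.8 in MA-2x and 72.7 in PMA-2x (3.50-fold, 2.10 to 6.04). osa-MIR2874-p5_1ss24TG, named here after its values were seen, was the only compared miRNA listed at 0. It had 10.4 in MA-2x and was at least 2.57-fold higher there against a floor of 3 reads in PMA-2x.

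Several abundant miRNAs were inside the 2-fold limit. osa-miR5792_1ss22AC had 3461 in MA-2x and 3160 in PMA-2x (1.10-fold higher, 1.04 to 1.15), ppt-miR894_R+1 had 3097 in MA-2x and 2529 in PMA-2x, and osa-miR5796 had 2517 in MA-2x and 1880 in PMA-2x. Within 0.1 of the median log2 ratio lay osa-miR5509, with 1593 in MA-2x and 2029 in PMA-2x, and osa-miR5497, with 1467 in MA-2x and 1803 in PMA-2x. osa-MIR169a-p3, of a family that targets NF-YA factors, had 576 in MA-2x and 477 in PMA-2x (1.21-fold higher, 1.06 to 1.38).

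By kind, the 146 compared known rice miRNAs lay 0.13 above the median, with 9 higher and 28 lower, and the 127 products of the other arm of a known hairpin lay 0.03 above it, with 7 higher and 21 lower. The 19 named after other species lay 0.21 below, with 1 higher and 6 lower. The 87 predicted hairpin products lay 0.14 below, with 4 (4.6%) higher and 29 (33.3%) lower, and they held 1.74% of the signal in MA-2x and 1.85% in PMA-2x. Of all miRNAs compared 5.54% were higher and 22.2% lower. Only 7 of the 87 predicted products exceeded 50, and these had a median 0.31 below that of all miRNAs. With a pseudocount of 10 the median of the 87 lay 0.03 below.

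Arms of the same hairpin could be compared in 77 hairpins. They differed in log2 ratio by a median of 0.44, and in 16 hairpins by more than 2-fold. Outside miR2118 neither arm was favoured, since the 3p product had the smaller ratio in 32 of 65 hairpins. The largest gaps were those of miR1871, miR528 and miR2863b. For miR2863b, osa-MIR2863b-p5 had 10.4 in MA-2x and 1.35 in PMA-2x, which is 1 read (7.71-fold higher, 1.12 to 332), and osa-miR2863b had 16.99 in MA-2x and 9.43 in PMA-2x (1.80-fold higher, 0.72 to 5.10). Where both arms exceeded 50, 5 of 47 hairpins differed by more than 2-fold.

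The same step in tetraploid anthers (MA-4x against PMA-4x) uses other libraries. At both stages the tetraploid florets and anthers were longer than the diploid ones. The length range of PMA-4x anthers was wider than that of PMA-2x anthers and took in that of MA-2x anthers. Of the 402 miRNAs 332 passed the minimum in both ploidies. Among these, 16 were higher and 56 lower in the diploid step, and 21 (6.33%) were higher and 98 (29.5%) lower in the tetraploid step. Of the 56 lower in diploid anthers, 24 (42.9%) were lower in tetraploid anthers too, which is 24.5% of the tetraploid calls. Of the 16 higher in diploid anthers, 5 (31.2%) were higher in tetraploid anthers, 23.8% of the tetraploid calls. Across the 332 miRNAs the log2 ratios correlated with a Pearson r of 0.33 and a Spearman rho of 0.32. Members of a family share sequence and each step shares its libraries, so the miRNAs are not independent points.

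The trigger arms parted between the ploidies. All 12 miR2118 3p products lay further below their own step's median in diploid anthers, with a median log2 ratio of −1.42 in the 2x step and −0.88 in the 4x step. Of them 11 were lower in the 2x step and 2 in the 4x step, while of all 332 miRNAs 56 were lower in the 2x step and 98 in the 4x step. osa-miR2118c had 639 in MA-4x and 1126 in PMA-4x, a ratio inside the 2-fold limit. Against each step's median, the 3p products lay 1.10 lower in the 2x step and 0.21 lower in the 4x step. The 5p products had a median of −0.63 in the 2x step and −1.12 in the 4x step, which is 0.31 and 0.45 below each step's median, and 7 of 18 lay further below it in the 2x step. Of the 5 miR2275 products of 22 nt past the minimum in both, 4 were lower in the 2x step and 1 in the 4x step. osa-miR2275d had 1106 in MA-4x and 1113 in PMA-4x, and zma-miR2275b-3p_1ss22AG had 935 in MA-4x and 801 in PMA-4x. osa-miR2275c_R-2 was level in both ploidies, with 5280 in MA-4x and 4997 in PMA-4x.

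Among those higher in diploid anthers, osa-miR1425-5p had 1277 in MA-4x and 1072 in PMA-4x, osa-miR168a-5p 1796 in MA-4x and 1348 in PMA-4x, and osa-miR156a 103 in MA-4x and 62.1 in PMA-4x, all inside the 2-fold limit as deposited. Against the lower median of the 4x step they lay 0.92 (osa-miR1425-5p), 1.08 (osa-miR168a-5p) and 1.40 (osa-miR156a) above it on the log2 scale. With each step centred on its median, the 2x ratio exceeded the 4x ratio by 1.03 for osa-miR1425-5p, 1.01 for osa-miR156a and 0.31 for osa-miR168a-5p. osa-miR1871 (74.3 in MA-4x and 29.9 in PMA-4x) and osa-miR172a (29.0 in MA-4x and 12.2 in PMA-4x) were called higher in both steps. The length classes also differed between the steps. Of the 74 miRNAs of 24 nt, 65 lay lower against their step's median in diploid than in tetraploid anthers, with medians of 0.01 and 0.85 above it. All 11 of 20 nt lay higher in diploid anthers. With 1 library per group, these differences between ploidies were not tested.

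**Figure D5:**
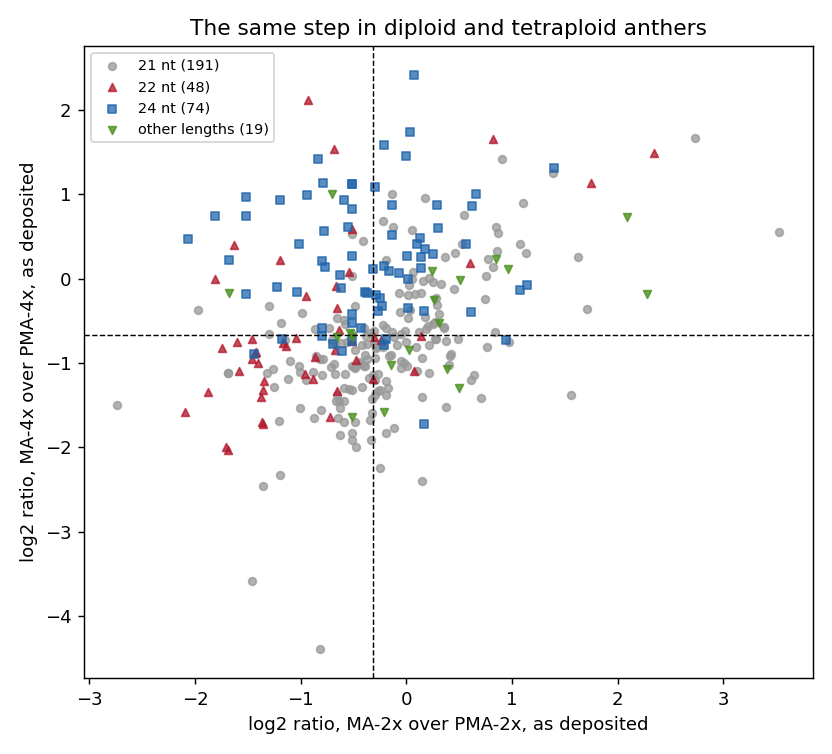
Log2 ratio of MA-4x over PMA-4x (vertical) against that of MA-2x over PMA-2x (horizontal) for the 332 miRNAs past the minimum in both, by length; dashed lines mark the medians, −0.67 and −0.31. The 22 nt points (triangles) gather to the left of the diploid median and most of the 24 nt points (squares) lie above the tetraploid median.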

How the data were processed

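The authors extracted total RNA from anthers, prepared small RNA libraries with a TruSeq kit, sequenced them on a HiSeq2500 and filtered and annotated reads with ACGT101-miR by BLAST against miRBase precursors, with 1 mismatch allowed, and the rice genome. For the build of that genome, none was given in the sources used here. The deposited signal values are copy numbers that the authors multiplied by 1 correction factor per library, for miRNAs over 10 in at least 1 stage. miR_name gave the family, by its number, and the arm; an unnamed arm was taken as opposite to the named partner.

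The value of 1 read was recovered as the largest step at which at least 70% of values are whole (tolerance 0.01): 74.1% in MA-2x and 75.2% in PMA-2x. The table holds 1.64% and 1.53% of the clean reads of MA-2x and PMA-2x. A listed 0 was read as 0.01 for calls only, and bounds used a floor of 3 reads. Ratios have no pseudocount. Members, lists and rules were chosen with earlier results of these data known. Lists were taken by family and described by counts and medians, without tests.

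Named miRNAs were, in each direction, the 15 largest folds at 50 or more that held under 4 scalings (as deposited, equal sums, median ratio, reads over clean reads), the 10 most abundant per library, the top and up to 8 called members per list, the top of other families with at least 4 members, those called in opposite directions in the ploidies, the 3 hairpins whose arms differed most, the 3 most abundant hairpins and 5 miRNAs near the median. A few others are named as partners of these. Steps, intervals and calls were tested on simulated data. Alternatives were the scalings, pseudocounts of 1 and 10, minimums of 20, 50 and none, folds of 1.5 and 4, counting intervals, whole reads only and each sequence once. Python 3.11.15 was used with pandas 2.3.3, numpy 2.4.6, scipy 1.17.1 and matplotlib 3.10.9. Groups follow the stage and ploidy labels, and each holds 1 library.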

Additional observations from a re-analysis of the deposited data

Results flagged for a closer look

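osa-MIR167c-p3, the 3p product of a miR167 hairpin, was the only miRNA called in opposite directions in the 2 ploidies. Its log2 ratio was 1.56 in diploid anthers (19.8 in MA-2x and 6.73 in PMA-2x) and −1.37 in tetraploid anthers (9.97 in MA-4x and 25.8 in PMA-4x). The difference was not tested, since each group is 1 library, and the 5 reads in PMA-2x leave a counting interval of 1.08 to 9.99 for the diploid fold.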

How the results depend on the processing

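The split into higher and lower moved with the scaling. It was 38 higher and 54 lower with equal sums, and 45 and 43 with the median ratio or with reads over clean reads, where the overall median log2 ratio was −0.092, 0 and 0.0020. It was 10 and 34 with a pseudocount of 10, 11 and 44 over 20, 5 and 31 over 50, 48 and 142 at a fold over 1.5, and 9 and 9 at a fold over 4. Lower calls numbered 54 with a counting interval clear of 1, taken here on reads rounded to whole numbers for all miRNAs, and 47 for whole reads only, of which 27 had an interval clear of 1. The relative median of miR2118 was −0.99 for summed values, −0.49 over 50, −0.72 with each sequence once, −1.04 for 3p and −0.25 for 5p. That of miR2275 was −0.11 summed, −0.69 over 50, −0.51 with a pseudocount of 10, −1.04 for 3p and 0.090 for 5p, and that of both families together −0.79 with each sequence once. The 22 nt class gave −0.9998 summed, −0.79 with each sequence once, −0.36 with a pseudocount of 10 and −0.29 without miR2118 and miR2275. The 24 nt class gave 0.20 summed, −0.39 over 50 and 0.010 with a pseudocount of 10, and the 21 nt class 0.29 summed. Signs also turned for summed values in the auxin list (−0.092), known rice miRNAs (−0.047) and miRNAs of other species (0.049, and 0.10 over 50). The correlation of the steps was 0.47 over 50. The causes were not tested. Of 365 values for the 73 named miRNAs under other scalings and pseudocounts, 11 changed sign, in 5 miRNAs inside the 2-fold limit (both zma-miR2275 5p names, osa-miR5509, osa-miR5497 and osa-miR827). The 52 called ones could not change sign. The scalings shift a log2 ratio by at most 0.38, and a pseudocount cannot turn it. The arms, single sequences and exclusion of the trigger families were chosen after seeing the data. No paired analysis was possible because each group holds 1 library, and for the same reason no library could be left out. Low reads limit the folds of miRNAs between 10 and 20, and counting intervals do not cover differences between plants.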

Other observations

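Some sequences are listed under more than one name: 9 sequences carry 18 names in the diploid table. For 2 of them both names have values within 1% of each other. These are the 21 nt 5p sequence of zma-miR2275b and zma-miR2275c, and the 5p sequence of osa-MIR162a and osa-MIR162b. For the others the values differ by name, as with osa-MIR2118p-p5 (96.3 in MA-2x and 177 in PMA-2x) and osa-MIR2118d-p5 (166.6 in MA-2x and 232 in PMA-2x).

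The first base was described too. By the call, 8 (4.97%) of 161 miRNAs that start with T were higher and 40 (24.8%) lower. With A, 5 (4.76%) of 105 were higher and 24 (22.9%) lower. With C, 2 (4%) of 50 were higher and 8 (16%) lower, and with G 6 (9.52%) of 63 and 12 (19.0%). Of all miRNAs compared 5.54% were higher and 22.2% lower. Those with T include 11 of the 12 miR2118 products of the 3p arm. The medians by first base lay 0.08 above that of all miRNAs for C, 0.14 above it for G, at it for A and 0.11 below it for T.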
